A study of Nematostella vectensis with 8 samples.

Results

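The 57 genes described here were moderately lower in gastrulae of the sea anemone Nematostella vectensis after knockdown of NvfoxE-like, a forkhead transcription factor gene, and stood alone among their identifier neighbours. They were chosen from 24520 genes by the measured values themselves. For each gene, the estimated read count of the NvfoxE-like shRNA library was compared with that of the scramble control library of the same replicate number, each as a share of its library total after adding 2 counts, on a log2 scale (the pair ratio, negative where the shRNA library was lower). A gene was taken as falling if its mean control level was at least 2 CPM (counts scaled to a common library total) and its pair ratio was -0.585 or less in all 4 pairs, which leaves at most 66.7% of the control share. Of the 15445 genes at that control level, 161 (1.04%) fell by this rule. Of these, 50 had another falling gene within 5 identifier numbers, 53 had none but a mean pair ratio of -1.5 or less, 1 that met every limit (mcol1) was left out by name, and the remaining 57 are the genes of this account. NvfoxE-like itself, whose mean was past the limit of -1.5, was not counted among the 57 either.

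The study sequenced polyadenylated RNA from 8 libraries, each from a pool of about 1000 whole embryos collected at 28 hours after fertilization at 24 °C. Embryos of wildtype genotype had been injected either with a combination of 2 short hairpin RNAs (shRNAs) against NvfoxE-like (4 libraries) or with a scrambled RNA (4 control libraries). A short hairpin RNA is processed in the cell to a small interfering RNA that degrades the matching messenger RNA, so it lowers a transcript without changing the gene. Libraries of both groups are numbered 1 to 4, and the study's methods describe them as pairs. All 8 carry the same batch label, whereas the library names begin with LA20_3 in replicates 3 and 4 and with LA19_2 in replicates 1 and 2.

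Cnidocytes are the stinging cells of cnidarians. Each one builds a capsule from minicollagens and other secreted proteins inside a vesicle of its secretory pathway, and it arises from progenitors that also give rise to neurons. Forkhead proteins bind DNA through a winged-helix domain and often act in the choice or maturation of a cell type. NvfoxE-like is known in this animal as a gene of developing cnidocytes. The 57 genes carry NV2 identifiers only. None of them is among the 38 cnidocyte genes with identifiers that the study collected from published work. That was set in part by the choice of genes. mcol1 is on this list, met every limit and was left out by name. Other listed genes fell in all 4 pairs but had a mean pair ratio past the limit of -1.5. These were NvfoxE-like (-1.52), NVE3843 (-1.82), Ncol (-1.84), cnido-jun (-1.98), NEP3-like (-2.04), GFI1B-like3 (-2.70), NVE15733 (-3.06) and NVE15732 (-3.92). Of the identifiers, 0 could be matched to the RefSeq gene table used here, so no name, position or function is given for any of them.

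Library totals were between 18656270 and 26073612 estimated counts, and 3 counts correspond to 0.115 to 0.161 CPM. NvfoxE-like had 10.5, 6.22, 12.7 and 16.8 CPM in shRNA replicates 1 to 4, against 29.1, 13.7, 48.8 and 49.5 CPM in control replicates 1 to 4. Every pair was lower in the shRNA library, with pair ratios of -1.46, -1.12, -1.93 and -1.56 (mean -1.52 ± 0.33, SD, n = 4 pairs). Its lowest control library, replicate 2, lay inside the range of the shRNA libraries. Of the 38 collected cnidocyte genes with identifiers, 7 were taken as markers (ncol3, ncol1, ncol4, mcol1, paxA, znf845 and sox2). All 7 were detected in every library, with a summed level of 667 to 1136 CPM in shRNA libraries and 1002 to 1262 CPM in control libraries. The largest part of the sum was ncol3, with means of 559 CPM in shRNA and 510 CPM in control libraries. By pair, that sum was 1120, 1136, 667 and 1008 CPM in shRNA replicates 1 to 4, against 1262, 1044, 1002 and 1180 CPM in control replicates 1 to 4. Among the minicollagen genes of the capsule, ncol1, ncol4 and mcol1 were lower in the shRNA library of every pair, with mean pair ratios of -0.81, -0.78 and -0.93, whereas ncol3 had a mean pair ratio of 0.10 and was lower in replicate 3 only. The mean pair ratios of paxA, znf845 and sox2, transcription factor genes, were 0.09, 0.05 and -0.05. These 7 do not stand for the whole collection, which held genes outside their range on both sides. Mean pair ratios were -3.06 in NVE15733 and -2.70 in GFI1B-like3, but 0.86 in coup-like2 and 0.71 in foxL2. In each of the 7 except znf845, the lowest pair ratio was that of replicate 3, and the part of these markers in the values of the 57 genes was not tested. foxA, a forkhead gene of the pharynx and endoderm that is also among the 38 collected cnidocyte genes, had 161 to 240 CPM in shRNA and 148 to 254 CPM in control libraries.

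Together the 57 genes gave 1009, 967, 563 and 1018 CPM in shRNA replicates 1 to 4, against 2084, 1884, 1313 and 2060 CPM in control replicates 1 to 4. The typical gene kept 47.2% of its control level in the mean of the pairs, with a median mean pair ratio of -1.08 and a range of -1.48 to -0.70. By replicate, the median pair ratio was -1.07, -0.94, -1.19 and -1.03 in replicates 1 to 4, whereas the median of all 15445 genes was -0.01, 0.05, 0.03 and 0.07. These values chose the genes and are given as a description with no test. The pair in which a gene was lowest relative to its control was replicate 3 for 24 genes, replicates 1 and 2 for 12 each and replicate 4 for 9. The smallest difference was most often in replicate 2 (19 genes), and these counts are not set against the share over all genes. Replicate 3 was also the pair with the lowest ratio of NvfoxE-like, and replicate 2 the pair with its highest. It was the lowest pair, too, of ncol3, paxA and sox2, whose mean pair ratios were 0.10, 0.09 and -0.05. A link between the depth of the knockdown and these values was not tested. In whole embryos, fewer cells that express a gene and less RNA of that gene per cell cannot be told apart.

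**Figure D1:**
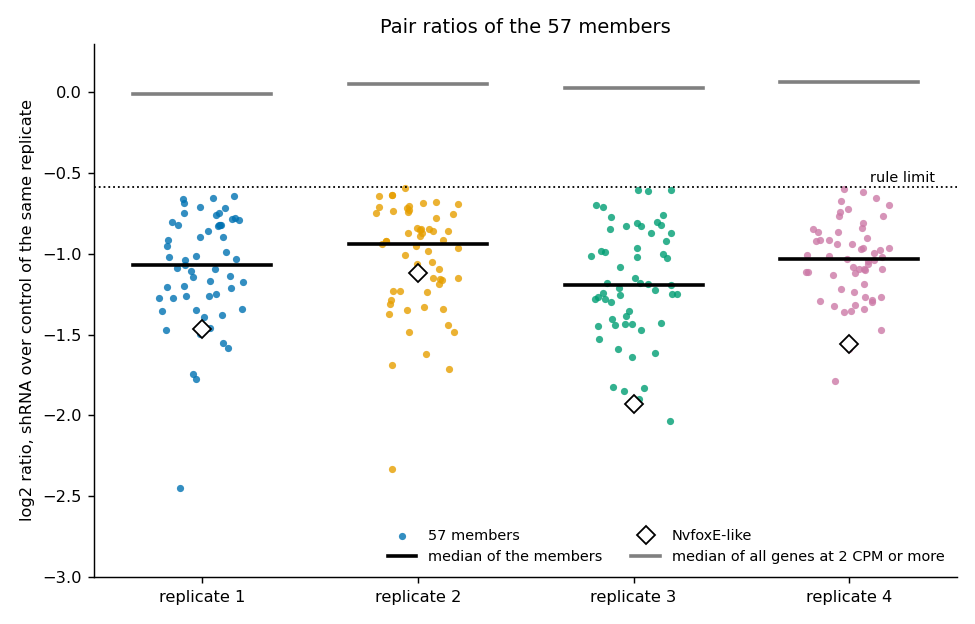
Pair ratios of the 57 genes (log2, shRNA over control of the same replicate number; y axis) in each of the 4 replicates (x axis). Points are genes, black bars their median (-1.07, -0.94, -1.19 and -1.03), grey bars the median of all 15445 genes at 2 CPM or more, diamonds NvfoxE-like, and the dotted line is the limit of -0.585 that every point had to pass.

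Most of the genes were low to middling in abundance. Mean control levels ran from 2.02 to 124 CPM with a median of 17.5 CPM; 5 genes were under 5 CPM, 24 between 5 and 20, 16 between 20 and 50, and 12 at 50 CPM or more. Per transcript length, the median control level was 11.0 TPM (abundance corrected for transcript length and scaled to a common total, range 0.611 to 164 TPM), the same to 3 digits as the median of all 15445 genes (11.0 TPM). The median transcript length was 2499 bases, against 2462 bases over all of those genes, from 577 bases in NV2.10042 to 18701 bases in NV2.949. A single annotated transcript was held by 46 of the 57 (80.7%), and by 71.3% of all genes at that level. Sums of estimated counts that were not whole in any library, a sign that reads were divided with another gene, were found in 15 genes (26.3%, against 44.0% of all genes), while NV2.25286 alone had a whole sum in all 8 libraries.

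NV2.10042, the shortest, was also the highest by TPM. It had 27.5, 41.1, 9.11 and 16.5 CPM in shRNA replicates 1 to 4, against 58.5, 67.5, 21.9 and 32.5 CPM in control replicates 1 to 4. The groups overlapped, since the control libraries of replicates 3 and 4 were at or below the shRNA library of replicate 2, but each shRNA library was under its own control, with a mean pair ratio of -1.01 ± 0.23 (SD, n = 4 pairs). Its mean level was 90.9 TPM in shRNA and 164 TPM in control libraries.

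The next 3 by TPM were NV2.18954, NV2.10248 and NV2.17352. NV2.18954 had 41.3, 36.0, 20.7 and 42.8 CPM in shRNA replicates 1 to 4 and 99.0, 68.3, 56.5 and 90.7 CPM in control replicates 1 to 4. All 4 shRNA libraries lay below all 4 controls, and the mean pair ratio was -1.18 ± 0.23. NV2.10248, the highest by CPM, had 78.8, 95.5, 25.8 and 58.5 CPM in shRNA replicates 1 to 4, against 136, 173, 70.0 and 115 CPM in control replicates 1 to 4 (mean pair ratio -1.02 ± 0.29). Replicate 3 held the lowest library of each group, and its control was below the shRNA libraries of replicates 1 and 2. NV2.17352 had 38.9, 55.4, 21.0 and 47.9 CPM in shRNA replicates 1 to 4, against 92.8, 86.5, 49.8 and 92.0 CPM in control replicates 1 to 4 (mean pair ratio -1.02 ± 0.29). Without replicate 3, its groups would not overlap.

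The other four of the 8 most abundant genes by TPM were NV2.9534, NV2.10312, NV2.8976 and NV2.4963. NV2.9534 had 78.8, 48.6, 51.3 and 71.2 CPM in shRNA replicates 1 to 4, against 129, 104, 78.0 and 134 CPM in control replicates 1 to 4. Only the control library of replicate 3 fell inside the shRNA range, just under shRNA replicate 1, and the mean pair ratio was -0.83 ± 0.22. NV2.10312 had 31.4, 50.7, 14.8 and 22.6 CPM in shRNA replicates 1 to 4, against 64.4, 119, 36.0 and 49.3 CPM in control replicates 1 to 4. The levels spread widely within each group while the pair ratios did not (mean -1.17 ± 0.11), and every shRNA library held less than 50% of its control. NV2.8976 had 54.1, 60.7, 21.3 and 52.2 CPM in shRNA replicates 1 to 4, against 122, 101, 76.8 and 106 CPM in control replicates 1 to 4, with no overlap and a mean pair ratio of -1.19 ± 0.47. Replicate 3 set that SD, with a pair ratio of -1.85 against -1.18 to -0.73 in the others. NV2.4963 had 30.1, 30.2, 11.4 and 25.2 CPM in shRNA replicates 1 to 4, against 52.5, 50.6, 23.0 and 41.6 CPM in control replicates 1 to 4 (mean pair ratio -0.82 ± 0.14).

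**Figure D2:**
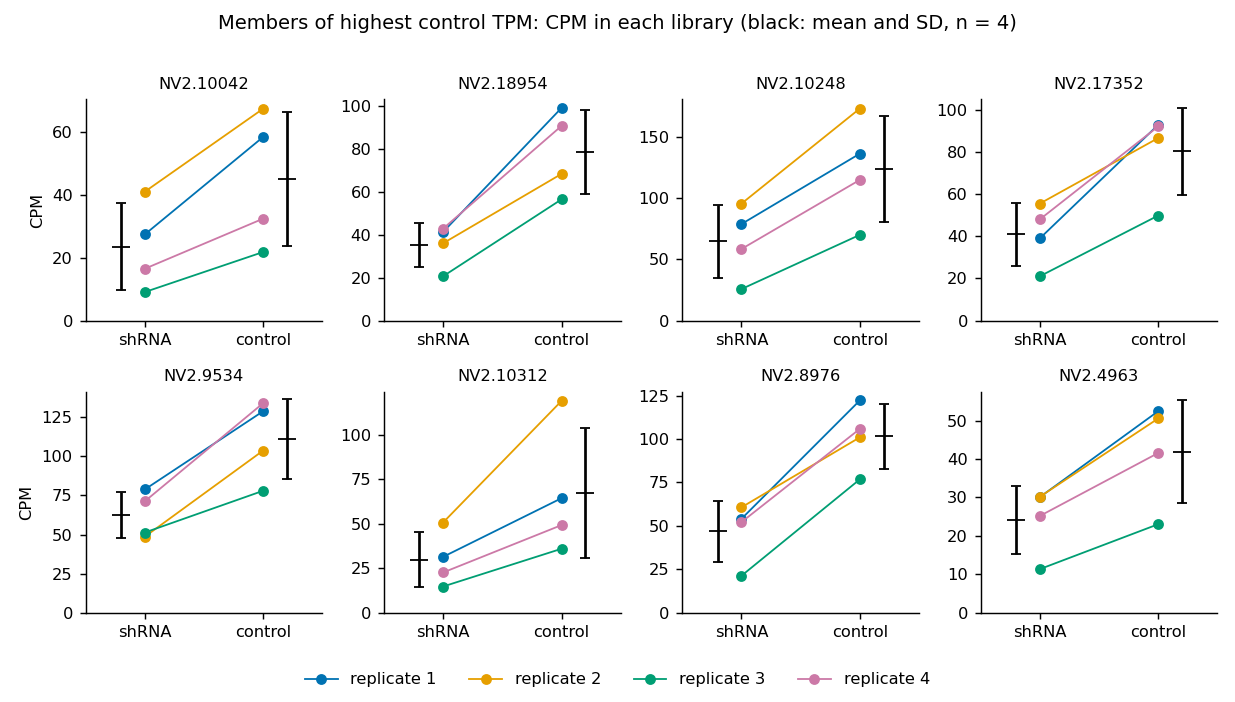
CPM (y axis, from 0) of the 8 genes with the highest mean control TPM in shRNA and control libraries (x axis). Lines join the libraries of 1 replicate number and black bars give the mean and SD of 4 libraries. Every line goes up to the control, and in NV2.18954 and NV2.8976 no shRNA library reaches a control library.

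The 6 genes with the lowest mean pair ratio kept between 35.7% and 39.2% of their control level. In NV2.3697 the difference was nearly the same in every pair. It had 6.39, 10.8, 2.45 and 4.79 CPM in shRNA replicates 1 to 4, against 17.9, 30.4, 7.81 and 12.3 CPM in control replicates 1 to 4, which gave pair ratios of -1.47, -1.48, -1.64 and -1.34. NV2.14428 reached the same mean (-1.48 ± 0.66) in another way, with 2.81, 3.38, 4.79 and 8.70 CPM in shRNA replicates 1 to 4 and 15.7, 6.79, 11.6 and 20.4 CPM in control replicates 1 to 4. Replicate 1 had a pair ratio of -2.45 and the other pairs between -1.27 and -0.98. NV2.22454 was the abundant gene of these, with 41.9, 25.9, 16.5 and 42.8 CPM in shRNA replicates 1 to 4, against 96.7, 59.0, 61.6 and 93.6 CPM in control replicates 1 to 4. Its groups did not overlap and its mean pair ratio was -1.35 ± 0.36.

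NV2.17827 and NV2.11394 were low genes of the same set. NV2.17827 had 2.68, 0.322, 3.26 and 5.49 CPM in shRNA replicates 1 to 4, against 6.52, 0.976, 13.6 and 10.4 CPM in control replicates 1 to 4 (mean pair ratio -1.38 ± 0.47). Both of its replicate 2 libraries were under 1 CPM. NV2.11394 had 2.29, 1.77, 1.46 and 4.42 CPM in shRNA replicates 1 to 4 and 8.01, 4.09, 4.61 and 8.15 CPM in control replicates 1 to 4 (mean pair ratio -1.35 ± 0.42). NV2.15362, the sixth, had 1.34, 0.601, 1.39 and 0.944 CPM in shRNA replicates 1 to 4, against 4.14, 3.47, 2.15 and 2.03 CPM in control replicates 1 to 4. Its groups did not overlap, although its pair ratios, from -2.33 to -0.60, were the most variable of all 57 (SD 0.75).

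At the other end, the 6 genes with the highest mean pair ratio kept between 56.6% and 61.4% of their control level. NV2.5798 had 9.74, 7.83, 9.98 and 13.6 CPM in shRNA replicates 1 to 4, against 17.7, 11.8, 17.1 and 20.6 CPM in control replicates 1 to 4. It had the smallest difference of the 57, at a mean pair ratio of -0.70 ± 0.13. NV2.9831 had 26.2, 30.9, 15.0 and 28.5 CPM in shRNA replicates 1 to 4 and 41.3, 62.2, 25.4 and 45.0 CPM in control replicates 1 to 4 (-0.77 ± 0.17). NV2.10559 had 21.1, 18.0, 8.40 and 15.4 CPM in shRNA replicates 1 to 4 and 32.8, 29.9, 14.9 and 31.0 CPM in control replicates 1 to 4 (-0.80 ± 0.16). In both genes the control library of replicate 3 was below shRNA libraries of other replicates. NV2.18023 and NV2.25743 averaged 7.53 ± 3.72 and 4.57 ± 1.56 CPM in shRNA libraries and 13.3 ± 6.17 and 7.94 ± 2.35 CPM in control libraries (SD, n = 4), with mean pair ratios of -0.81 in each. NV2.4963, given above, was the last of these 6.

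How evenly the pairs agreed differed among the genes. The SD of the 4 pair ratios had a median of 0.22 and ran from 0.054 in NV2.21582 to 0.75 in NV2.15362, and it was under 0.2 in 25 genes. NV2.21582 had 48.8, 64.3, 18.2 and 37.1 CPM in shRNA replicates 1 to 4, against 110, 134, 40.6 and 84.4 CPM in control replicates 1 to 4. Its level differed 3.32-fold between the highest and lowest control, yet its pair ratios stayed between -1.18 and -1.06. The largest SDs after NV2.15362 and NV2.14428 were those of NV2.12645 (0.53) and NV2.15872 (0.52). NV2.15872 had 19.8, 4.77, 21.5 and 46.2 CPM in shRNA replicates 1 to 4, against 58.2, 7.77, 76.0 and 90.3 CPM in control replicates 1 to 4. Replicate 2 held its lowest library in both groups, 11.6-fold below the highest control, and also its smallest difference (-0.69). NV2.12645, the lowest gene by mean control CPM, had 1.02, 0.268, 0.616 and 1.02 CPM in shRNA replicates 1 to 4 and 1.68, 0.617, 2.00 and 3.77 CPM in control replicates 1 to 4. Less than 50% of the control share was left in all 4 pairs in 10 genes: NV2.3341, NV2.3697, NV2.6685, NV2.6950, NV2.10312, NV2.17400, NV2.21537, NV2.21582, NV2.22448 and NV2.22454.

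**Figure D3:**
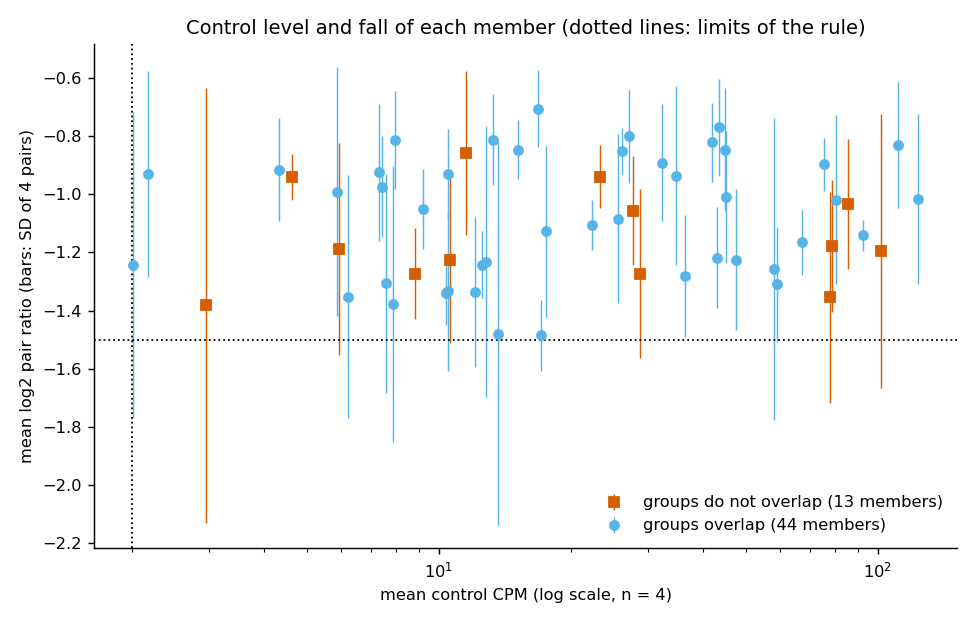
Mean pair ratio (log2, y axis; bars are the SD of 4 pairs) against mean control CPM (log axis) for the 57 genes. Orange squares are the 13 genes whose shRNA libraries all lie below all controls and blue circles the 44 whose groups overlap; dotted lines are the limits of 2 CPM and -1.5, and both kinds of gene occur at low and at high levels.

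The limits of the rule cut through a continuous range. On the limit for single pairs, NV2.5798 was just inside, with a highest pair ratio of -0.590, and NV2.20737 just outside at -0.584. On the mean, NV2.3697 and NV2.14428 were inside at -1.48 and NV2.11718 just outside at -1.505. On the control level, NV2.12645 was inside at 2.02 CPM and NV2.7639 outside at 1.96 CPM. On the distance, NV2.12782 and NV2.12788 were inside because they lie 6 numbers apart. NV2.12782 had 22.1, 15.2, 10.8 and 25.8 CPM in shRNA replicates 1 to 4, against 39.2, 24.6, 28.4 and 46.5 CPM in control replicates 1 to 4. NV2.12788 had 12.3, 14.5, 4.92 and 9.87 CPM in shRNA replicates 1 to 4, against 24.5, 32.3, 11.3 and 21.2 CPM in control replicates 1 to 4. Their order over the replicates differed: in the controls NV2.12782 was lowest in replicate 2 and NV2.12788 highest there.

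In the comparison of the groups across all genes, edgeR's quasi-likelihood test without a block called 0 of the 57 lower at an adjusted p of 0.05 and a log2 fold change of 0.585 in size, and 0.0% of the 19002 genes tested. At an unadjusted p of 0.05 and the same fold it counted 39 of the 57, against 1.22% of all genes lower, and DESeq2 without a block called 1, NV2.6698 (adjusted p = 0.0390), against 0.224%. With the replicate number as a block, edgeR called 51 of the 57, against 1.07% of all genes lower, and DESeq2 called 55, against 1.3%. The median log2 fold change of the 57 was -1.11 without and -1.12 with the block, and that of all genes 0.01 and 0.02. The rule used this contrast and required a difference within every pair, so nothing is read from these counts. The 6 genes not called with the block were NV2.8832, NV2.12645, NV2.15362, NV2.17000, NV2.18488 and NV2.25286 (adjusted p from 0.0577 to 0.285). All had mean control levels between 2.02 and 5.86 CPM.

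Of the 57 genes, 13 had all shRNA libraries below all control libraries, as had 0.738% of the 15445 genes at 2 CPM or more: NV2.949, NV2.4150, NV2.6698, NV2.7167, NV2.8976, NV2.15362, NV2.17000, NV2.17017, NV2.18954, NV2.21537, NV2.22454, NV2.24342 and NV2.24908. In the other 44 the groups overlapped although every pair differed. The highest control library exceeded the lowest by a median of 1.75-fold in the 13 and 2.85-fold in the 44, with median mean pair ratios of -1.19 and -1.03. The rule had required a lower shRNA library in every pair, and groups overlap less readily where controls stand close together. Nothing is therefore read from the share of the 57 without overlap or from these medians. NV2.7167, the second highest of the 13 by mean control CPM after NV2.8976, had 49.5, 39.4, 26.0 and 53.3 CPM in shRNA replicates 1 to 4, against 95.9, 67.6, 64.2 and 115 CPM in control replicates 1 to 4. NV2.6698 had 6.31, 3.27, 3.49 and 5.34 CPM in shRNA replicates 1 to 4, against 11.2, 8.52, 9.80 and 13.0 CPM in control replicates 1 to 4. The controls of NV2.6698 stood close together, within 1.53-fold.

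Each control library entered the rule as the denominator of its own pair ratio, so the order of the 4 control pools given next is not free of the choice of genes. In 31 of the 57 genes replicate 3 was the lowest control (54.4%), in 25 replicate 2 (43.9%), in 1 replicate 4 (NV2.15362) and in 0 replicate 1. Over all 15445 genes the lowest control was replicate 3 in 34.9% and replicate 2 in 50.7%. The highest control was replicate 1 or 4 in 34 of the 57 (59.6%), against 25.9% of all genes, for which replicate 3 was most often the highest (39.1%). The 30 cnidocyte genes of the study's collection at 2 CPM or more had shares like those of the 57: 56.7% were highest in replicate 1 or 4, and 53.3% lowest in replicate 3. These shares are a description over genes of the same 4 libraries and were not tested. The same replicate was lowest in both groups in 49 of the 57 (86.0%, against 74.0% of all genes), and the same replicate was highest in both groups in 36 (63.2%, against 70.6%).

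**Figure D4:**
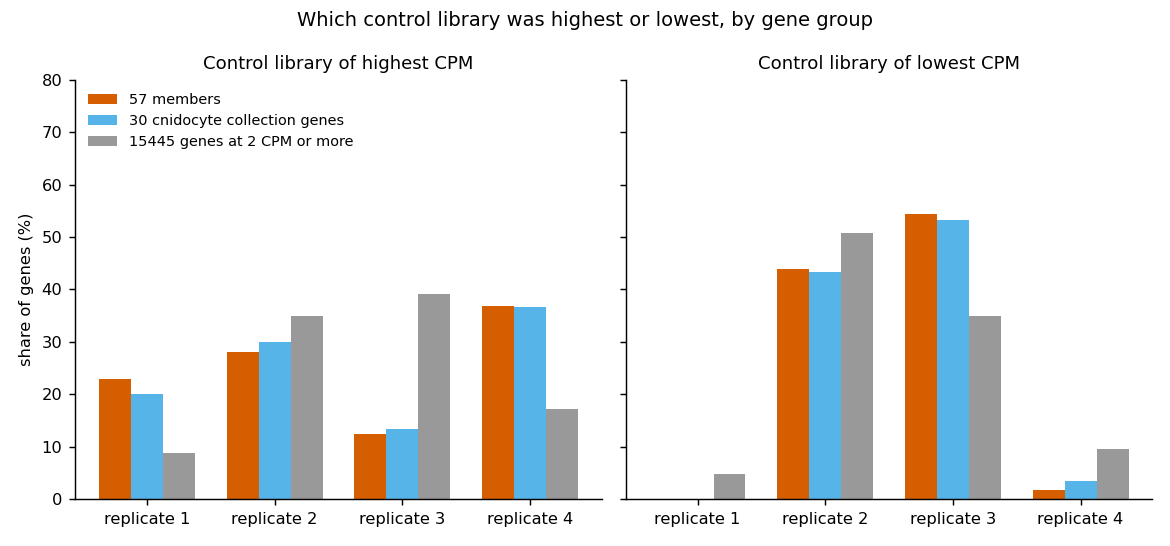
Share of genes (%, y axis) whose highest (left) or lowest (right) control library is the replicate on the x axis, for the 57 genes, the 30 collected cnidocyte genes at 2 CPM or more and all 15445 genes at that level. The 57 genes and the cnidocyte genes have close to the same bars, and replicate 1 is the lowest control of none of either.

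Within the 57, the controls stood mostly in a few orders. In 16 genes replicate 3 was lowest and replicate 2 highest, and in 16 others replicate 2 was lowest and replicate 4 highest. Another 10 were lowest in replicate 3 and highest in replicate 1, 7 lowest in replicate 2 and highest in replicate 3, 5 lowest in replicate 3 and highest in replicate 4, and 2 lowest in replicate 2 and highest in replicate 1. The abundant genes NV2.10042, NV2.10248, NV2.10312 and NV2.21582 were of the first kind. NV2.24334 was lowest in control replicate 2 and highest in control replicate 3, with 13.9, 3.64, 26.1 and 28.4 CPM in shRNA replicates 1 to 4, against 22.8, 8.30, 49.4 and 48.4 CPM in control replicates 1 to 4. Replicate 2 was also its lowest shRNA library. In the 31 genes lowest in control replicate 3, the median pair ratios in replicates 1 to 4 were -1.03, -0.94, -1.18 and -1.06. In the 25 lowest in control replicate 2 they were -1.07, -0.92, -1.25 and -0.97. The rule limited every pair ratio and every mean in both sets. Medians of like size were thus set in part by the choice of genes, and nothing is read from them.

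To compare the pools by library name, the shRNA and control counts of each replicate were added, so that treatment was balanced, and the sums of replicates 3 and 4 (LA20_3) were compared with those of replicates 1 and 2 (LA19_2). What the prefix of the library name marks is not stated in the labels. edgeR's quasi-likelihood test called 0 of the 57 in either direction, against 0.0195% of 20481 genes lower and 0.0391% higher in LA20_3. At an unadjusted p of 0.05 and the same fold, 12 of the 57 were lower and 3 higher, against 16.9% and 22.0% of all genes, and DESeq2 on the same sums called 10 lower and 3 higher, against 12.0% and 20.0%. The median log2 fold change of the 57 was -0.37, with 37 below 0 and 20 above, beside a median of 0.02 over all genes. The lowest was NV2.6685 at -1.89 (SE 0.58) and the highest NV2.17827, just above NV2.24334 at 1.47 (SE 0.48). The smallest adjusted p of the 57 in edgeR, 0.0703, was that of NV2.10042 (log2 fold change -1.51, SE 0.41).

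This contrast depended on single pools. Without replicate 3 the median of the 57 was 0.0026, and without replicate 4 it was -0.81. Without replicate 1, when replicate 2 stood alone for LA19_2, the test called 13 of the 57 lower and 9 higher, against 21.7% and 27.1% of all genes. The spread in that fit comes from replicates 3 and 4 alone, and the single pool is assumed to vary as they do. With all 8 libraries as separate samples and treatment as a covariate it called 19 lower and 3 higher, against 25.4% and 26.9% of all genes, but libraries of 1 replicate number are not independent in that fit.

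Transcript share, the part of a gene's counts that each of its transcripts holds, is relative to the gene's own total and was not used by the rule. Of the 57 genes, 11 have 2 or more annotated transcripts, and NV2.7167 has 13. The leading transcript held between 45.5% and 99.3% of the counts in control libraries, and its mean share in shRNA libraries differed from that by -12.7 to 12.6 percentage points. In NV2.3697 the leading transcript held 85.8%, 89.7%, 71.2% and 81.2% in shRNA replicates 1 to 4, against 90.6%, 96.5%, 71.7% and 75.0% in control replicates 1 to 4. The groups overlapped throughout. Of the 9 genes with at least 2 transcripts past the filter, 0 were called by edgeR's test of transcript usage, against 0.109% of 3657 genes. Before adjustment, 0 of these genes passed at the 0.05 level without a block, against 1.2% of all genes. With the block 0 were called, against 0.137%, and before adjustment 1 passed (NV2.15888), against 5.47%. In the same blocked test of transcript usage, the 2 transcripts of NV2.15888 had p of 0.398 and 0.469 when taken singly. Its leading transcript held 49.0%, 65.3%, 59.1% and 40.2% in shRNA replicates 1 to 4. In control replicates 1 to 4 that transcript held 68.2%, 71.6%, 73.7% and 51.1%. The share was lower in the shRNA library of every pair, although the groups overlapped. Salmon's division of reads among similar transcripts adds an error to these shares that the counts do not show.

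The identifiers order the genes by number, and the tables used here hold no coordinates, so distance is given only in identifier numbers. Although the rule excluded a falling gene within 5 numbers, 14 of the 57 (24.6%) had their nearest one 6 to 20 numbers away, against 13.3% of all genes at 2 CPM or more. The shares are not alike in base. Genes with a falling gene within 5 numbers are absent from the 57 but lower the share over all genes. Another of the 57 was within that distance for 12 genes, which form 6 pairs: NV2.6685 and NV2.6698, NV2.12782 and NV2.12788, NV2.15872 and NV2.15888, NV2.17000 and NV2.17017, NV2.22448 and NV2.22454, and NV2.24334 and NV2.24342. In 5 of the 6 pairs the genes differed in which control replicate was lowest. NV2.22448 and NV2.22454 shared replicate 2 and had mean pair ratios of -1.34 and -1.35 at 10.4 and 77.8 CPM in the controls.

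Of the 57 genes, 3 (5.26%, against 1.35% of all genes at that level) lay within 5 numbers of a collected cnidocyte gene. NV2.22448 had 3.47, 1.29, 3.91 and 7.63 CPM in shRNA replicates 1 to 4, against 9.92, 3.42, 9.41 and 18.7 CPM in control replicates 1 to 4. NVE13546, 2 numbers away, had 25.9, 7.77, 28.3 and 47.8 CPM in shRNA replicates 1 to 4, against 36.3, 15.8, 51.2 and 83.6 CPM in control replicates 1 to 4. Both genes were lowest in replicate 2 and highest in replicate 4 in each group, and NVE13546 missed the limit only in replicate 1 (pair ratio -0.49). Of all genes at 2 CPM or more, 50.7% were lowest in control replicate 2 and 49.9% in shRNA replicate 2. The highest library was control replicate 4 in 17.1% and shRNA replicate 4 in 21.3%, so nothing is read from the shared order. NV2.21582 was 4 numbers from ANTR2-like, whose mean pair ratio was -0.29 ± 0.42 and which was higher in the shRNA library of replicate 2. NV2.23902 was 1 number from NVE26200, which was at most 0.563 CPM in every library.

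Since the 57 genes have no annotated pathway, the collected cnidocyte genes served as the list for the tissue. It leaves out NvfoxE-like and holds 37 genes, of which 33 passed the filter on low counts. edgeR without a block called 0 of the 33, and with the replicate block 12 lower and 2 higher. Their median log2 fold change was -0.47 without and -0.54 with the block, beside 0.01 and 0.02 over all genes. The study marked some of these genes as dependent on NvfoxE-like from these same libraries, so their direction is not independent evidence.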

How the data were processed

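Salmon, run by the authors on the Galaxy platform against Nvec200 transcripts, gave the deposited estimated counts (expected reads, not always whole) and the deposited TPM values for 35819 transcripts per library. The submitters' notes name Salmon and DESeq2 without versions; the sources used here state neither strandedness nor bias options. Provider-trimmed reads were 150 bases, paired.

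Estimated counts were summed per gene and rounded for the tests. CPM here are relative to the plain library total, without TMM, and whole sums are within 0.01. Intervals and floors (3 counts) cover counting error only.

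The groups were then tested in R 4.3.3 with edgeR 4.0.16 (quasi-likelihood F test, TMM, filterByExpr with a minimum count of 10, Benjamini-Hochberg adjusted p of 0.05, log2 fold change of 0.585) and no block. DESeq2 1.42.0 and a replicate block were alternatives. Transcript usage was tested with diffSpliceDGE. The scripts were tested on simulated data. Same-numbered libraries deviated together from their group means (correlations 0.65, 0.94, 0.92 and 0.83), and were treated as pairs, as the study's methods describe them. Libraries of another number but the same name prefix correlated about as much in places (0.64 between shRNA replicate 1 and control replicate 2, and 0.82 for shRNA replicate 4 beside control replicate 3), so number and prefix are not told apart by these values alone. Nothing states what else a pair shares. In fits without a block, p-values measure the spread between pools. With the replicate block they measure the spread of the difference between shRNA and control over the 4 pairs. No libraries were duplicates (chi-square per degree of freedom at least 24.8).

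The genes and lists were chosen with earlier results of these data known. Named were NvfoxE-like, the 8 genes of highest control TPM, the 6 lowest and 6 highest mean pair ratios, the 4 largest SDs and the genes nearest each limit. Other names, such as NV2.21582, NV2.24334, NV2.7167, NV2.6698 and NV2.22448, were chosen after their values were seen.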

Additional observations from a re-analysis of the deposited data

Results flagged for a closer look

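Over the 25 genes checked (24 of the 57 and NvfoxE-like), 50 groups of 4 libraries were searched for a single library far from the other three, and chance alone would give about 5% of groups. There were 2. NV2.17352 had 49.8 CPM in control replicate 3, against 86.5 to 92.8 CPM in the other controls. NV2.10559 had 14.9 CPM in the same library, against 29.9 to 32.8 CPM in the other controls. In both genes the shRNA library of replicate 3 was also the lowest of its group.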

How the results depend on the processing

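Whether the genes were called rested on the pairing. Across all genes edgeR called 0 of 19002 without the block and 243 of 19002 with it. DESeq2 called 56 of 20956 without and 328 of 20082 with it. Among the 57 genes the counts were 0, 51, 1 and 55. The rule required a fall in every pair, so nothing is read from the counts among the 57 in this contrast. With the block and 1 replicate left out, the counts across all genes were 145 of 19200 (without replicate 1), 271 of 19209 (2), 209 of 18708 (3) and 150 of 18975 (4). They were 37, 50, 43 and 38 among the 57, and 9, 15, 13 and 8 of 33 in the cnidocyte list. That list had 14 of 33 called with the block, 5 of 37 by DESeq2 and 16 of 37 by DESeq2 with the block. Without the block, leaving out a replicate, other scalings and no filter on low counts each gave 0 calls in edgeR, and the block changed no call in transcript share among the 57. In the contrast by library name, the 12 calls of all genes became 0 in control libraries alone, 2965 in shRNA libraries alone, 9943 with all 8 libraries, 2804 with no filter, 5693 by DESeq2 and 15 to 10335 without 1 replicate. Among the 57 these settings gave 0, 5, 22, 2, 13 and 0 to 22. The genes tested numbered 19243 in shRNA libraries alone, 19002 with all 8 libraries, 23769 with no filter and 17778 by DESeq2. All 57 were among them. In each of these settings a smaller share of the 57 than of all tested genes was called. For calls lower in LA20_3 the share of the 57 was the larger, 33.3% against 25.4% with all 8 libraries and 17.5% against 12.0% by DESeq2. For calls higher it was 5.26% in both, against 26.9% and 20.0%. Transcript share had 4 calls over all genes, 1 with no filter and 4 to 18 without 1 replicate. The rule itself gave 71 to 91 genes without 1 replicate, 59 with TMM-scaled totals (55 of the 57 among them), 59 with 0.5 counts added and 46 with ratios of TPM (37 of the 57), under which the median of all genes was 0.13, against 0.04. The cause of these changes was not tested, apart from the smaller number of pairs to pass when a replicate is left out. The median of the mean pair ratios stayed between -1.13 and -0.999 in every setting, and the mean pair ratio of each of the 25 genes checked kept its sign. All of these genes had been required to fall past the limit in every pair. Leaving out a replicate could therefore not reverse a sign, and neither result is read as a check on the genes. NV2.12788 moved by more than its SD, to -1.01 with TPM. What sequencing depth limits was not tested.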
